A study of Mus musculus with 6 samples.

Results

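*Egr1*, its paralogs *Egr2* and *Egr3*, the activators of the *Egr1* gene *Elk1*, *Elk3*, *Elk4* and *Srf*, and the EGR corepressors *Nab1* and *Nab2* were examined in bulk RNA-seq of hematopoietic stem cells (HSCs) with and without Med23. These 9 genes, of 34745 listed, were taken by symbol from the read counts per gene. They were chosen by the KO and WT counts themselves, because *Egr1* was already known to be much lower in these KO libraries, so the KO and WT values of the 9 genes are given as a description and carry no test. HSCs were sorted from the bone marrow of adult C57BL/6 mice as LSKs (lineage-negative, Sca1-positive, cKit-positive cells) that were CD150+CD34-CD48-. The 3 WT samples carried the floxed allele alone (Med23floxp/flowp) and the 3 KO samples carried it with the Cre transgene (Mx1-cre;Med23floxp/flowp). Mx1-cre is switched on by interferon, which the study induced with poly(I:C), and is not restricted to HSCs. The labels give neither the interval between poly(I:C) and sorting for these libraries nor the number of mice behind each sample, so the spread between samples may in part be technical.

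EGR proteins are zinc finger transcription factors made within minutes of a growth factor or stress signal. The kinase ERK phosphorylates the ternary complex factors Elk1, Elk3 and Elk4, which sit with SRF on CArG boxes and serum response elements of immediate early genes, *Egr1* among them. Phosphorylated Elk1 is known to bind MED23, the Mediator subunit removed here, and EGR1 is known in HSCs for restraining division and keeping the cells in the marrow. NAB1 and NAB2 bind EGR1, EGR2 and EGR3 and repress their activity, and *Nab2* is itself an EGR-induced gene.

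Promoter sequences of 7 of the 9 genes were taken from RefSeq (GRCm38.p6). Those of *Egr1* and *Egr3* were left out, so no motif is reported for these genes, whether present or absent. In windows reaching from 250 bases before to 50 bases after each start site, 3 motifs were searched on both strands. These were the CArG box bound by SRF, the EGR site (GCGGGGGCG or GCGTGGGCG) and the ETS core CCGGAA that Elk proteins read. Of 32851 mouse promoters, 1.63% held a CArG box, 3.47% an EGR site and 14.9% an ETS core. Below are the 150 bases before the start site of the *Srf* promoter and of 1 *Egr2* promoter, which hold CArG boxes, and of *Nab1*, which holds 3 EGR sites. Capitals mark CArG boxes and EGR sites, and each sequence runs 5′ to 3′ on the strand of its gene.
Srf, chr17:46556163-46556312, minus strand: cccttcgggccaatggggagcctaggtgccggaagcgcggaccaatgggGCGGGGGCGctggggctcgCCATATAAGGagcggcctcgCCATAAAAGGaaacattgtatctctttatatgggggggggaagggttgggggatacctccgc
Egr2, chr10:67537719-67537868, plus strand: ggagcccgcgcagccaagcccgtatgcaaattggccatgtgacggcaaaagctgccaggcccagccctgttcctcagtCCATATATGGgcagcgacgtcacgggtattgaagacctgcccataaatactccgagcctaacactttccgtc
Nab1, chr1:52500449-52500598, minus strand: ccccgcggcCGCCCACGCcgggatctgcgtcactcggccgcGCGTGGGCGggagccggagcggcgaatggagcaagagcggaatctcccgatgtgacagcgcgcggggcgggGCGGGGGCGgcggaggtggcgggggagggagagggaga

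In *Srf* the CArG boxes began 82 and 62 bases before the start site, the EGR site 101 bases and an ETS core, left in lower case, 122 bases before it. In the *Egr2* promoter shown the CArG box began 72 bases before the start site. Another *Egr2* promoter, with its start site at 67537566, held 1 other CArG box and 3 matches to the ETS core. The matches at 131 and 129 bases before that start site overlap and read the same stretch on both strands. The *Egr2* promoter with its start site at 67535499 matched none of the 3 motifs. The EGR sites of *Nab1* began 141, 109 and 38 bases before it. *Elk3* and 1 of 3 *Elk4* promoters held 1 EGR site each, another *Elk4* promoter held 1 ETS core, and the *Elk1* promoter matched none of the 3 motifs. The *Nab2* window searched matched none either, but its start site, 127666703, lies inside the gene. On the minus strand *Nab2* begins at 127668568 in GENCODE M21, and the sequence before that end was not searched. A match describes the letters of the window and is not evidence of binding.

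The libraries held between 3537269 and 8131344 counts, and 12513 genes passed the filter on low counts. Values below are normalized CPM, that is counts scaled to a common library size by TMM, and the detection floor of 3 counts is worth between 0.369 and 0.927 CPM in these libraries. *Med23*, the deleted gene, reached 47.6, 70.8 and 24.1 CPM in the WT libraries, in the order of their replicate numbers, which is kept throughout, and 31.6, 29.8 and 36.8 CPM in the KO libraries. All KO libraries thus exceeded the library labelled WT replicate 3, and the log2 fold change was -0.54 (standard error 0.41, edgeR quasi-likelihood adjusted p = 0.99). Without WT replicate 3 it was -0.85 and without WT replicate 2 it was -0.13, and the deleted exons cannot be read apart from the rest of the gene in these counts. HSC markers (14 genes) were all counted and summed to between 3242 and 3793 CPM in WT and between 3393 and 3532 CPM in KO. Within that list *Kit*, *Ly6a*, *Hlf* and *Esam* were lower and *Mecom* was higher in every KO library, against 6.15% and 6.25% of all genes tested, and none of the 5 passed the adjusted threshold with edgeR or DESeq2. These 5 were named after their values were seen. *Esam*, an adhesion molecule of HSCs, averaged 177.5 ± 18.7 CPM in WT against 99.2 ± 14.8 CPM in KO, and *Mecom*, a transcription factor of HSC self-renewal, 221.9 ± 30.5 against 338.05 ± 78.8 CPM. Replicate 3 of both groups held 1 (WT) and 0 (KO) counts of 4 Y-linked genes, and the other 4 libraries held at least 1036.

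*Egr1* (ENSMUSG00000038418, chromosome 18 from 34859823 to 34864984 in GRCm38) was counted 421, 587 and 331 times in WT replicates 1 to 3 and 32, 33 and 14 times in KO replicates 1 to 3. This came to 86.3, 72.1 and 102.3 CPM in WT and 6.48, 6.01 and 2.83 CPM in KO. The lowest WT library was 11.1-fold above the highest KO library, so the groups stood far apart and the KO libraries still held a signal above 3 counts. The mean was 86.9 ± 15.1 CPM in WT and 5.11 ± 1.98 CPM in KO (SD, n = 3 in each group), 16.9-fold lower in KO. The log2 fold change was -4.08 with a standard error of 0.42. Fewer cells with *Egr1* RNA and less of it per cell cannot be told apart in bulk samples. Without the library labelled WT replicate 3 the log2 fold change was -3.95. On the log2(CPM + 0.5) scale the difference between the group means was -3.56 among the 4 libraries with Y-linked counts and -4.95 between the 2 without. *Egr1* was the 1 member past the adjusted threshold of 0.05, where 0.0719% of all genes tested were called (0.0559% lower and 0.016% higher in KO). With DESeq2 it was again the 1 member called, against 0.959% of all genes tested (0.559% lower and 0.4% higher). It was picked for this value, so nothing is read from that count.

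*Egr2* and *Egr3* were nearly absent, and *Egr4*, the remaining gene of the family, was listed at 0 in every library. *Egr2* (chromosome 10 from 67535475 to 67542188), best known for its role in myelination, had 0, 0 and 5 counts in WT and 0, 1 and 1 in KO. *Egr3* (chromosome 14 from 70077203 to 70082614), a paralog that is also induced by ERK signals, had 1, 1 and 12 counts in WT and none in KO. In both genes the library labelled WT replicate 3 was the only one above 3 counts. Neither passed the filter, and no fold change is given. Of all counts on the 3 EGR genes, *Egr1* took between 95.1 and 99.8% in WT and between 93.3 and 100% in KO.

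**Figure D1:**
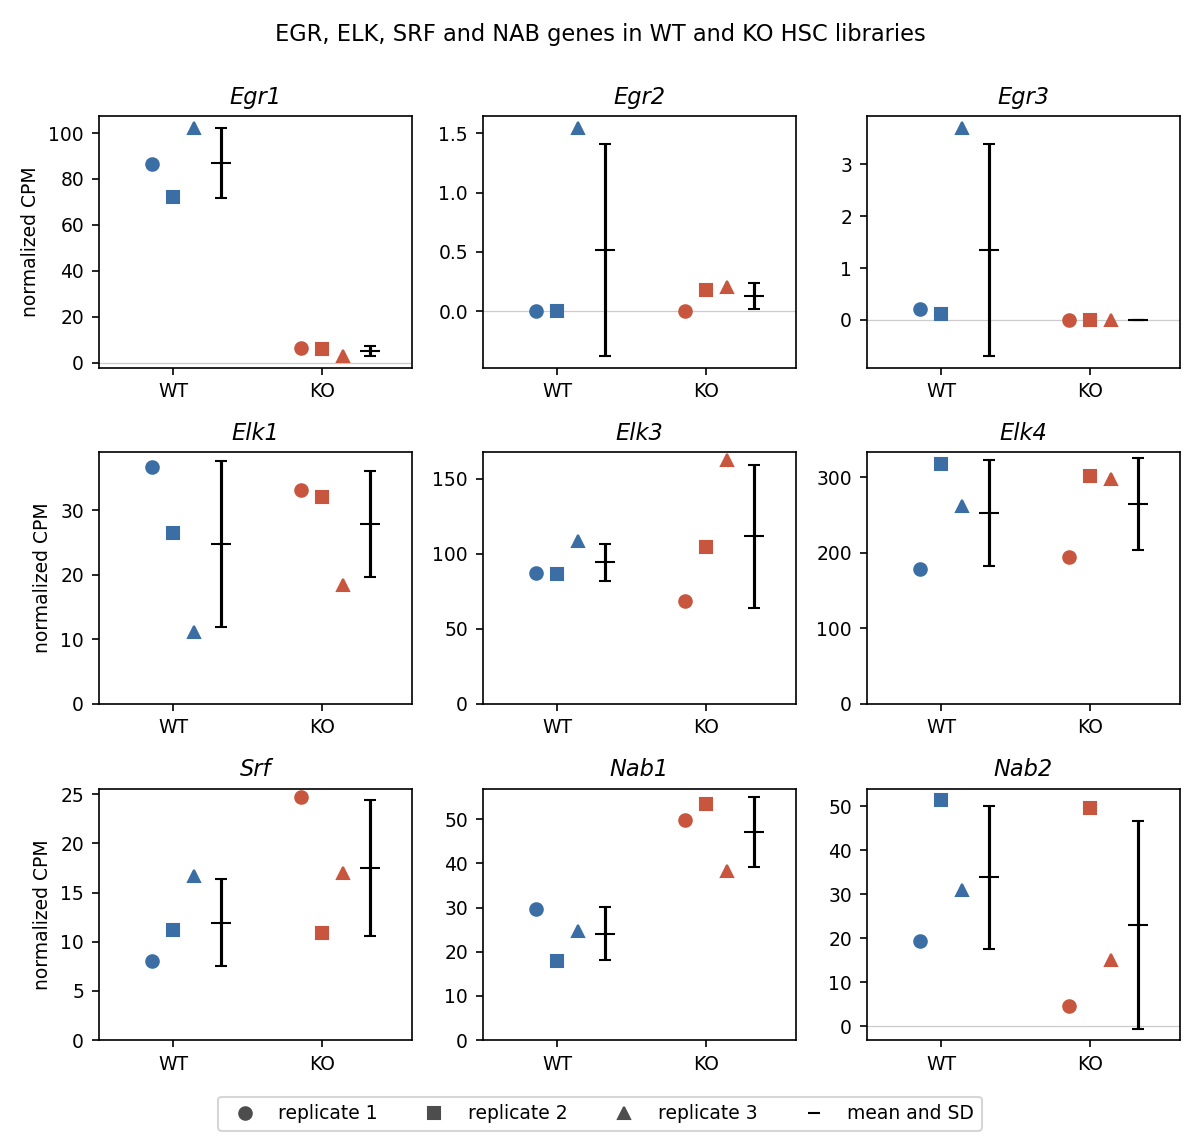
Normalized CPM (vertical axes) of the 9 genes in the 3 WT (blue) and 3 KO (red) libraries, with the mean and SD in black beside each group. *Egr1* lies between 72.1 and 102.3 CPM in WT and between 2.83 and 6.48 CPM in KO, *Nab1* lies higher in every KO library, and the groups overlap for *Elk1*, *Elk3*, *Elk4*, *Srf* and *Nab2*.

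Of the ternary complex factors, *Elk4* and *Elk3* stood above the median of the genes tested in every library and *Elk1* below it, per kilobase of exon. *Elk4* (chromosome 1 from 132007607 to 132032612), which encodes the factor also called SAP-1, was at 178, 318 and 262 CPM in WT and at 194, 302 and 298 CPM in KO. These ranges overlapped almost in full, with a log2 fold change of 0.07 (standard error 0.27). *Elk3* (chromosome 10 from 93247414 to 93311135), whose protein, also called Net, can repress until it is phosphorylated, was at 87.5, 86.5 and 108.8 CPM in WT and at 68.5, 104.3 and 162.7 CPM in KO. The KO libraries spread on both sides of WT (log2 fold change 0.25, standard error 0.32), and without KO replicate 3 the estimate was -0.12. *Elk1* (chromosome X from 20933395 to 20950608) was at 36.7, 26.5 and 11.1 CPM in WT and at 33.2, 32.03 and 18.4 CPM in KO. Replicate 3 was the lowest in each group, the log2 fold change was 0.16 (standard error 0.50), and without WT replicate 3 it was -0.18. For *Elk4* too the sign rested on single libraries, with -0.13 without WT replicate 1 and 0.27 without WT replicate 2. *Srf* (chromosome 17 from 46548329 to 46556175) was at 7.996, 11.2 and 16.7 CPM in WT and at 24.7, 10.9 and 16.998 CPM in KO. Its groups overlapped, and the log2 fold change of 0.56 (standard error 0.55) was 0.23 without KO replicate 1. Between the libraries without Y-linked counts it was 0.03 and among those with them 0.77, on the log2(CPM + 0.5) scale.

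The corepressors are given next, and a difference between their responses was not tested. *Nab1* (ENSMUSG00000002881, chromosome 1 from 52457294 to 52500679) was at 29.7, 17.8 and 24.7 CPM in WT and at 49.8, 53.3 and 38.2 CPM in KO. Every KO library was above every WT library, by 1.29-fold at the closest pair. The log2 fold change was 0.97 (standard error 0.36), a 1.96-fold difference, and it stayed between 0.79 and 1.16 in 14 alternative fits. Within the libraries with Y-linked counts the log2(CPM + 0.5) difference was 1.15, and between those without it was 0.62. *Nab2* (chromosome 10 from 127660918 to 127668568) was at 19.3, 51.4 and 30.9 CPM in WT and at 4.46, 49.5 and 15.0 CPM in KO. The KO libraries differed 11.1-fold among themselves and replicate 2 was the highest in each group. The log2 fold change of -0.56 (standard error 0.73) ranged from -1.80 without KO replicate 2 to -0.07 without KO replicate 1. Exons of *Nab2* share bases with those of 3 genes on the other strand, *Stat6*, *Nemp1* and *Gm16229*, and the use of strand in the counting is not given in the sources used here. *Gm16229*, which shares 1050 of the 2941 exonic bases of *Nab2*, was counted at most once in a library. How the shared bases affected the *Nab2* counts was not tested. *Stat6*, which shares 40 bases with *Nab2*, had 1171, 1607 and 549 counts in WT and 1334, 1194 and 1057 in KO. *Nemp1*, which shares 151, had 158, 405 and 33 in WT and 244, 181 and 83 in KO, next to 94, 418 and 100 and then 22, 272 and 74 for *Nab2*. *Stat6*, *Nemp1* and *Nab2* thus all had their highest WT count in replicate 2, the deepest library. In KO *Stat6* and *Nemp1* had their highest count in replicate 1, where *Nab2* had its lowest. Exons of *Elk3* likewise share 316 bases with *Cdk17* and those of *Elk4* 84 with *Mfsd4a* on the other strand, and those of *Elk1* share 76 with *Uxt* on the same strand.

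In all, 2 of the 7 members tested, *Egr1* (lower) and *Nab1* (higher), did not overlap between the groups, where 12.4% of all genes tested did not (6.15% lower and 6.25% higher in KO). *Nab1* did not pass the adjusted threshold with edgeR or DESeq2. At an unadjusted p under 0.05 the same 2 members passed, against 5.71% of all genes (2.77% lower and 2.94% higher in KO). These shares belong to the contrast with which the set was chosen and are given for scale only.

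**Figure D2:**
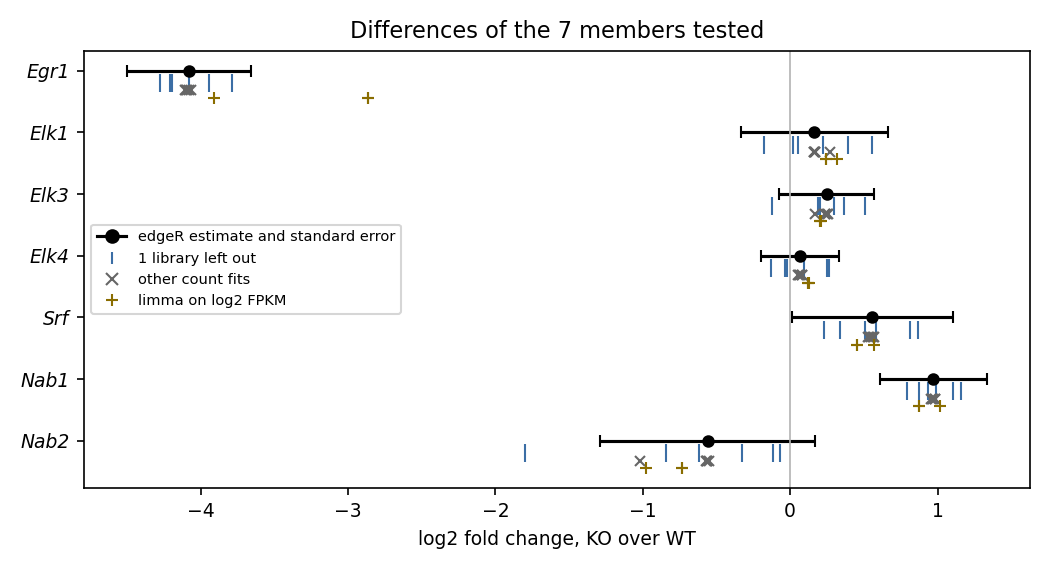
Log2 fold change of KO over WT (horizontal axis) for the 7 members that passed the filter, with the edgeR standard error, and below each the estimates with 1 library left out, with other fits of the counts and with limma on log2 FPKM. *Egr1* stays at or below -2.86 and *Nab1* at or above 0.79, while *Elk1*, *Elk3* and *Elk4* have estimates on both sides of 0.

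Levels of different genes were compared as normalized CPM per kilobase of exonic length in GENCODE M21. The deposited FPKM values were not used for this, because they imply a length of 7520 bases for *Egr1*, which spans 5162 bases with 4484 exonic bases, and of 1416 bases for *Egr3*, which has 4406. In WT the order was *Elk4* (39.4 ± 10.95 CPM per kilobase), *Elk3* (20.7 ± 2.76), *Egr1* (19.4 ± 3.37), *Nab2* (11.5 ± 5.53), *Nab1* (5.88 ± 1.46), *Elk1* (4.61 ± 2.39), *Srf* (4.13 ± 1.52), *Egr3* and *Egr2* (SD, n = 3). Of the neighbours in that order, *Elk4* was above *Elk3* and *Srf* above *Egr3* in all WT libraries, and the other neighbours overlapped. In KO *Egr1*, at 1.14 ± 0.443 CPM per kilobase, came after *Elk1* (5.18 ± 1.53) and did not overlap with it. Among genes tested, *Egr1* per kilobase stood between the 69.5th and 78.4th percentiles of the WT libraries and between the 7.17th and 13.0th percentiles of the KO libraries. *Elk4* stood between the 82.3rd and 91.8th percentiles in all 6.

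**Figure D3:**
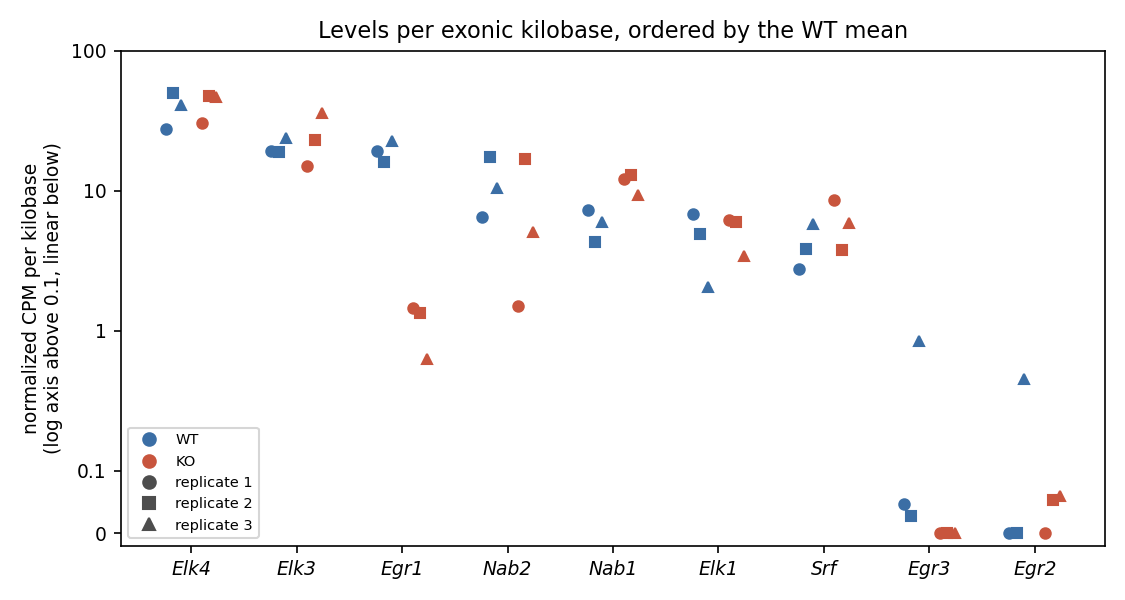
Normalized CPM per exonic kilobase (vertical axis, logarithmic above 0.1 and linear below) of the 9 genes, ordered by the WT mean, in WT (blue) and KO (red) libraries. *Egr1* is among the upper 3 genes by the WT mean, though below *Nab2* in WT replicate 2. In KO it lies between the other members and the near-absent *Egr2* and *Egr3*.

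Proportions within each family were then set beside the levels. *Egr1* per kilobase was 1.40, 0.738 and 1.38 times the sum of *Nab1* and *Nab2* in WT and 0.106, 0.0449 and 0.0438 times that sum in KO. The NAB sum itself overlapped between the groups, at 17.4 ± 4.07 CPM per kilobase in WT and 19.3 ± 9.13 in KO. *Nab2* made up 47.5, 80.1 and 63.5% of that sum in WT and 11.1, 56.4 and 35.3% in KO, so its share overlapped between the groups. The summed ternary complex factors were at 64.7 ± 9.99 CPM per kilobase in WT and at 71.1 ± 17.6 in KO (SD, n = 3). *Elk4* made up 60.1 ± 7.95% of them in WT and 58.4 ± 3.90% in KO, *Elk3* 32.5 ± 5.70% and 33.7 ± 6.98%, and *Elk1* 7.49 ± 4.83% and 7.94 ± 3.998%. The makeup of the ternary complex factor family thus differed between the genotypes by less than the spread between replicates.

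The genes around the set were read from 6 lists, with the members left out. Over all 12513 genes the median log2 fold change was -0.0054. In edgeR's quasi-likelihood test no gene of any list passed the adjusted threshold, against 0.0719% of all genes tested. The genes named here by their values thus did not pass.

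Upstream, all 20 genes of the ERK pathway that leads to Elk proteins (adaptors, RAS proteins and the kinases down to ERK and RSK) were abundant enough to test, with a median log2 fold change of 0.16. At an unadjusted p under 0.05 there were 2 higher and 0 lower, against 2.94% and 2.77% of all genes tested, and DESeq2 called none. *Sos2*, an exchange factor that activates RAS and 1 of these 2, named after its values were seen, was at 26.2, 34.9 and 22.3 CPM in WT and at 30.4, 75.0 and 68.0 CPM in KO. Its groups overlapped (a log2 difference of 1.05, standard error 0.41, adjusted p = 0.77). Of 13 ERK feedback inhibitors, the DUSP phosphatases and Sprouty and Spred proteins among them, 12 were tested. None passed at an unadjusted p under 0.05 (5.71% of all genes tested) or with DESeq2 (0.959%), and the median log2 fold change was 0.42. *Dusp7*, which inactivates ERK, was higher in every KO library, with means of 7.92 ± 3.07 CPM in WT and 15.6 ± 2.32 CPM in KO (log2 fold change 0.98, standard error 0.57, adjusted p = 0.96).

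Of 10 relatives and cofactors of EGR proteins, 8 were tested and *Egr4* and *Wt1* had no counts. The list's median log2 fold change was 0.12. At an unadjusted p under 0.05 the coactivator *Ep300* and, named after its values were seen, its paralog *Crebbp* were higher, and none was lower. Of all genes tested 2.94% were higher and 2.77% lower at that threshold. *Ep300* was at 82.8, 112.8 and 98.3 CPM in WT and at 162, 198 and 190 CPM in KO, and the log2 difference was 0.90 (standard error 0.22, adjusted p = 0.36). It passed with DESeq2 (adjusted p = 0.042). Of 18 SRF cofactors and targets of the actin-MRTF branch, 13 were tested, with a median of 0.38. At an unadjusted p under 0.05 there was 1 higher (*Vcl*, which encodes the focal adhesion protein vinculin) and 1 lower (*Acta2*), both named after their values were seen. The shares of all genes tested are again 2.94% and 2.77%. In 3 genes of this list the KO libraries were all higher and in 1 all lower, against 6.25% and 6.15% of all genes tested. *Cnn2* (log2 fold change 0.39, standard error 0.20, adjusted p = 0.93) and *Tpm4* (0.65, standard error 0.33, adjusted p = 0.93), which encode an actin-binding calponin and a tropomyosin, did not overlap between the groups. *Acta2*, smooth muscle actin, had 50, 82 and 68 counts in WT and 0, 0 and 5 in KO. It passed with DESeq2 (adjusted p = 0.0013) and not with edgeR (adjusted p = 0.36). *Acta2* passed the filter on low counts through its WT libraries, like some of the skeletal muscle markers given below. The part of the muscle signal in the *Acta2* difference was not tested. Of all genes tested, DESeq2 called 0.4% higher and 0.559% lower in KO.

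Of 26 immediate early genes outside the EGR family, 20 could be tested. The list's median was 0.09. At an unadjusted p under 0.05 there were 4 higher and 1 lower, against 2.94% and 2.77% of all genes tested, and DESeq2 called none. In 5 genes the KO libraries were all higher and in 3 all lower, against 6.25% and 6.15% of all genes tested. *Btg2*, an antiproliferative gene, averaged 11.3 ± 3.64 CPM in WT against 37.7 ± 25.1 CPM in KO (SD, n = 3 in each group) (log2 fold change 1.73, standard error 0.55, adjusted p = 0.58). *Klf6*, a zinc finger factor, was at 45.7 ± 16.1 and 103.1 ± 19.7 CPM (1.18, standard error 0.32, adjusted p = 0.42). *Maff*, a small MAF protein, was at 21.1 ± 8.98 and 9.32 ± 3.72 CPM (-1.17, standard error 0.56, adjusted p = 0.91), and *Myc* at 143.6 ± 65.3 and 65.3 ± 18.5 CPM (-1.13, standard error 0.36, adjusted p = 0.56). *Fos*, like *Egr1* a gene with a serum response element and named here after its values were seen, was at 51.5, 15.9 and 7.42 CPM in WT and at 9.12, 2.18 and 18.6 CPM in KO. Its groups overlapped, and the log2 difference was -1.32 (standard error 0.84, adjusted p = 0.99). *Ier2* and *Junb*, also named after their values were seen, had log2 fold changes of -0.03 (standard error 0.21) and 0.09 (standard error 0.28).

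Downstream, 22 genes reported as EGR1 targets in various cells were read, of which 17 could be tested. The list's median was 0.05. At an unadjusted p under 0.05 there were 2 higher and 0 lower, against 2.94% and 2.77% of all genes tested, and DESeq2 called none. In 3 genes the KO libraries were all higher and in 0 all lower, against 6.25% and 6.15% of all genes tested. *Cd44*, an adhesion receptor, was at 73.8, 58.7 and 34.9 CPM in WT and at 109.6, 89.4 and 104.0 CPM in KO (log2 fold change 0.85, standard error 0.31, adjusted p = 0.74). *Mmp14*, a membrane-bound matrix protease, was at 21.8 ± 5.38 and 42.0 ± 12.4 CPM (0.95, standard error 0.40, adjusted p = 0.83). *Cdkn1a* and *Bmi1*, which have been tied to EGR1 in HSCs and are named here after their values were seen, overlapped between the groups. *Cdkn1a*, the cell cycle inhibitor p21, averaged 17.3 ± 4.86 CPM in WT against 17.6 ± 6.80 CPM in KO (log2 fold change 0.02, standard error 0.50). *Bmi1*, a Polycomb gene of self-renewal, was at 27.1 ± 11.5 and 35.7 ± 23.6 CPM (0.40, standard error 0.54).

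**Figure D4:**
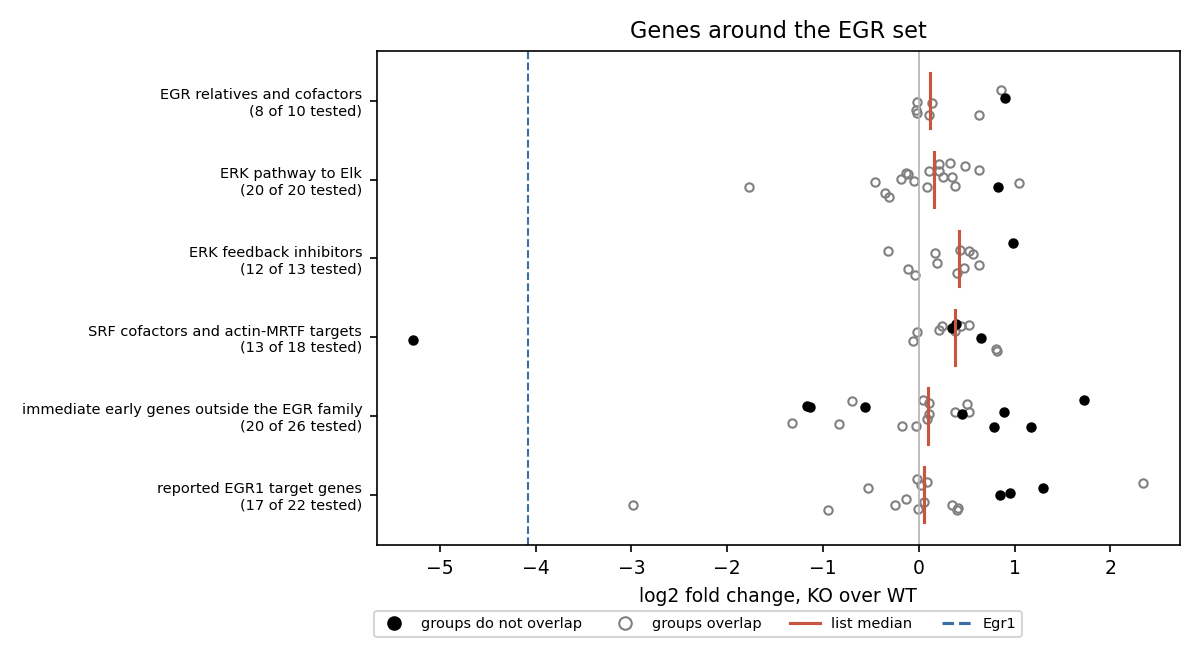
Log2 fold change of KO over WT (horizontal axis) for the tested genes of 6 lists, with filled points for genes whose groups do not overlap, a red line at each list's median and a dashed line at *Egr1*. The medians lie between 0.05 and 0.42, and of the list genes *Acta2* alone is below *Egr1* at -4.08.

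As a description only, the genes whose pattern over the 6 libraries was nearest to *Egr1* were *Zfyve9*, *Mybph*, *Myh1*, *Kif2c* and *Chrna1*, of 11630 genes compared. Their centred log2(CPM + 0.5) values differed from those of *Egr1* by a root mean square of 0.37, 0.40, 0.41, 0.43 and 0.44. *Zfyve9*, which encodes the SMAD anchor SARA, had 35, 83 and 31 counts in WT and 4, 2 and 0 in KO. *Mybph*, *Myh1* and *Chrna1* encode a myosin-binding protein, a fast myosin heavy chain and a subunit of the muscle acetylcholine receptor, and had between 36 and 60 counts in each WT library and at most 1 in any KO library. *Kif2c*, a mitotic kinesin, had 58, 43 and 29 counts in WT and none in KO. All 5 had fewer counts than *Egr1* in every WT library. The likeness rests on the KO and WT difference for which *Egr1* was chosen, and where a gene had no KO counts the added 0.5 CPM sets its distance.

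Markers of skeletal muscle, taken as a sum, were like *Egr1* lower in every KO library. Of 28 muscle genes 18 were tested, and 15 of these were lower in every KO library, against 6.15% of all genes tested. The other tested genes, *Tnni2*, *Neb* and *Ryr1*, overlapped between the groups, and *Acta1* alone passed the adjusted threshold with edgeR. These genes were named after their values were seen. Some passed the filter through their WT counts alone, *Des*, *Myog* and *Myod1* among them, so the 15 are not a measure of the whole list. The sum over the list was between 165.8 and 401.5 CPM in WT and between 24.9 and 53.0 CPM in KO. In KO 15 of the 28 were at 0 in all 3 libraries, *Myod1*, *Myog* and *Des* among them, and 13 of these were counted in every WT library. *Egr1* kept 14 to 33 counts in those KO libraries. In WT replicates 1 to 3, 30.6, 35.4 and 34.1% of the muscle list's WT counts were found, against 31.4, 43.8 and 24.7% of the *Egr1* counts and 28.9, 49.5 and 21.5% of all WT counts. The *Egr1* counts per muscle count were 0.361, 0.435 and 0.255 in WT and 0.26, 0.113 and 0.0886 in KO. The part of the muscle signal in the *Egr1* difference was not tested. Sums overlapped between the groups for markers of neutrophils and monocytes (409.5 to 558.5 CPM in WT and 496.4 to 760.9 in KO), erythroid cells (44.5 to 117.8 and 30.9 to 67.0), lymphocytes (58.0 to 78.8 and 58.2 to 78.7) and stroma and endothelium (100.1 to 204.6 and 167.1 to 186.2). *Pax5*, *Cd3e*, *Pdgfra* and *Dcn* were at 0 in every library. Single genes of these lists, named after their values were seen, did not overlap or stood out in 1 library. *Itgam*, the myeloid integrin CD11b, had 24, 6 and 39 counts in WT and 394, 435 and 364 in KO, and it passed with DESeq2 (adjusted p = 3.6e-06) but not with edgeR (adjusted p = 0.18). *Lyz2*, with 1686 to 4098 counts a library, took most of the neutrophil and monocyte sum. *Mpo* and *Elane*, granule genes of myeloid progenitors, had 867 and 115 counts in KO replicate 3, against at most 23 and 10 in the other libraries. *Epor*, the erythropoietin receptor, had 72, 108 and 162 counts in WT and 26, 20 and 35 in KO (edgeR adjusted p = 0.48). The part of these cell type markers in the *Egr1* difference was not tested either.

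**Figure D5:**
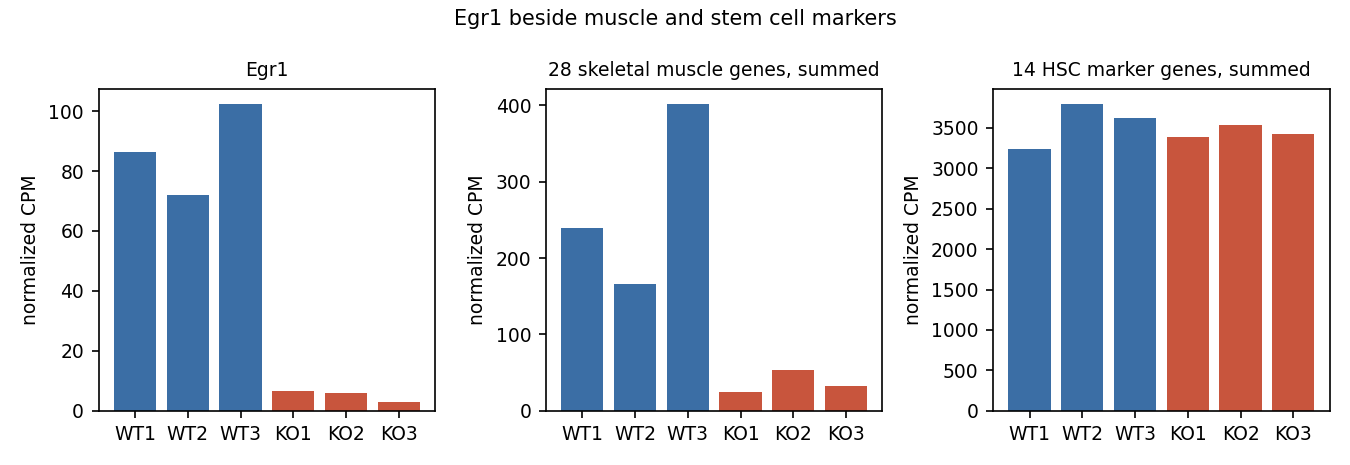
Normalized CPM per library (vertical axes starting at 0) of *Egr1*, of 28 skeletal muscle genes summed and of 14 HSC marker genes summed, in WT (blue) and KO (red). The first 2 are lower in every KO library, and the HSC markers sum to between 3242 and 3793 CPM in all 6.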

How the data were processed

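The authors deposited raw read counts per gene and FPKM values for 3 WT and 3 KO libraries. The submitters' processing notes name TopHat, HTSeq and mm10, without versions, and the strand setting is not given in the sources used here. The labels describe SMART-Seq v4 amplification, whereas the methods name a TruSeq kit. The deposited FPKM values equal counts over column total and 1 length per gene, to within 0.0703%, but those lengths differ from GENCODE M21, in which 34267 of 34745 identifiers were found.

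From the counts, edgeR 4.0.16 in R 4.3.3 gave the main test (filterByExpr, TMM, robust quasi-likelihood test, Benjamini-Hochberg adjustment over all genes tested, threshold 0.05). Column totals were between 3537269 and 8131344, and replicates of a group differed by a chi-square of 25.9 to 53.5 per degree of freedom. Standard errors are the log2 fold change over the root of the F statistic. The alternatives were DESeq2 1.42.0, upper-quartile scaling, no filter, at least 10 counts in every sample, the replicate number as a block, limma 3.58.1 on log2 FPKM (pseudocount 1 with a minimum mean FPKM of 1 or with no minimum, pseudocount 0.1 with that minimum), and omission of each sample in turn. A split of the libraries by Y-linked counts was added after the data were seen.

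The members and lists were chosen with earlier results of these data known. List genes are named if past the threshold, or as the up to 2 largest rises and falls per list among genes averaging 50 counts or more whose groups did not overlap. The 5 genes most like *Egr1* were taken among genes with a mean of at least 20 counts. Other names are marked as chosen after their values were seen. Of the genes this rule names, 1 is not reported here.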

Additional observations from a re-analysis of the deposited data

How the results depend on the processing

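The log2 fold change of *Egr1* was -2.86 with limma on log2(FPKM + 1), with and without the filter, where the pseudocount exceeds the KO values, and lay between -4.28 and -3.79 with each sample left out in turn. Since the members were chosen by this contrast, their calls and signs describe these libraries and are no sign of stability. *Egr1* was not past the threshold in limma on log2(FPKM + 1) without a filter, 1 of 14 alternatives. *Nab1*, *Nab2*, *Srf* and *Med23* kept their sign in all 14, *Elk1* and *Elk3* in 13 and *Elk4* in 11. Of all genes, 9 passed with edgeR (2 higher, 7 lower), against 120 with DESeq2 (50 higher, 70 lower), 15 with limma on log2(FPKM + 1) and a filter, and 1 without that filter. With each sample left out in turn 5 to 11 passed, the 5 without WT replicate 1. In the lists, DESeq2 called 1 relative or cofactor of EGR proteins (*Ep300*), and DESeq2 and limma on log2(FPKM + 1) with a filter each called 1 SRF target (*Acta2*). *Acta2* had at most 5 counts in a KO library, and the part of the muscle signal in its difference was not tested. No list gene passed in any other alternative. In the fit with a replicate block 5 genes passed, none of them on a list, and *Nab2* had a log2 fold change of -1.02. Deviations of same-numbered samples correlated at 0.17, 0.032 and 0.17. Those of other pairs lay between -0.173 (WT replicate 3 with KO replicate 1) and 0.035 (WT replicate 2 with KO replicate 1). Both replicate 3 libraries also had at most 1 count of the Y-linked genes. These values do not settle whether the numbers pair the samples, and the main fit took no pairing. *Egr2* and *Egr3* had too few counts to be compared, and neither passed the default filter.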
